A study of Drosophila melanogaster with 9 samples.

Results

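Embryos mutant for *ken and barbie* (*ken*) were compared with control embryos by RNA-seq of polyadenylated RNA, across all genes of the table. The comparison takes the 3 samples labelled as *ken* mutant and the 3 labelled as control, 6 of the 9 samples of the series. The other 3 are *pri* mutants, which entered the fit and so share its estimate of the spread, and whose values are given beside those of *ken* mutants. Each sample was made from 200 whole embryos of stage 16, late in embryogenesis, when the larval cuticle is being laid down.

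*ken* mutants carried the allele *ken*1 over the deficiency Df(2R)BSC660, which deletes *ken*, and were selected by hand with a GFP balancer. The stock table of the study lists the *ken*1 stock with P{PZ} in the name of the *ken* allele and with marker alleles of *cn* and *ry*. The *pri* mutants were of the allele *pri*S18.1. The control samples are labelled WT and their titles begin with w, and nothing in the labels ties them to 1 of the stocks of the study. The *ken*1 chromosome and the deficiency were each kept as a stock, so the loss of *ken*, the halved dose of the other genes in the deficiency and further differences between the stocks cannot be told apart in this comparison.

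Ken is a transcription factor with a BTB domain and zinc fingers that represses its target genes, and it is the fly relative of the mammalian repressor BCL6. It is known from the development of the genitalia and as a factor that limits part of the response to JAK/STAT signaling. Loss of a repressor can raise its direct targets, and indirect effects can go either way.

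The samples held 21048610 to 28859395 counts assigned to genes. Levels are the authors' normalized counts, which are counts divided by a size factor per sample. On the first principal component, with 32.8% of the variance, *ken* samples (−28.3 to −6.2) and control samples (−29.4 to −13.1) overlapped. On the second, with 27.7% of the variance, the *ken* samples lay between −44.7 and −27.9 and the control samples between 20.7 and 29.7. *ken* sample 1 was farthest out there. Markers of 10 cell types were all in the table, and 2 of 4 fat body markers had a mean under 10 normalized counts. Of 7 epidermal markers none passed the test, and their summed level was 59248 to 71645 in control and 57323 to 72928 in *ken* samples. Of 6 markers of hemocytes, the blood cells of the fly, 1 fell, where 2.81% of all genes fell by edgeR. It was *NimC1*, a phagocytosis receptor (log2 fold change −0.88, adjusted p = 0.0131 from edgeR, and 0.0574 without control sample 3). The summed level of the 6 was 17217 to 19080 in control samples and 12508 to 18685 in *ken* samples, which overlap. No marker of the other cell types passed. In whole embryos, fewer cells of a type and less RNA per cell cannot be told apart.

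*ken* RNA was strongly reduced but still counted in the mutants. *ken* (FBgn0011236; 2R of dm6, 23870273 to 23877442) stood at 6957, 7431 and 6432 normalized counts in the control samples and at 1197, 1184 and 1338 in the *ken* samples. The groups did not overlap, and the log2 fold change was −2.49 (standard error, SE, 0.13, adjusted p = 2.54e-05 from edgeR). *pri* mutants stood at 5678, 8132 and 7180, in the range of the control samples or close to it.

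Genes on both sides of *ken* were lower as well. In the 155.4 kb from *egl* to *DCP1*, 24 genes besides *ken* had a mean of at least 10 normalized counts. Of these, 18 were lower in *ken* mutants and 0 higher by edgeR, with a median log2 fold change of −0.79 among the 18 and a range of −1.48 to −0.45. Across the genome 2.81% of the 15228 genes tested were lower and 2.21% were higher. The bounds of this stretch were chosen with these values known.

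The genes of the stretch have varied roles. *gbb*, a BMP ligand, stood at 1923, 2160 and 2037 normalized counts in control samples and at 821, 1007 and 1005 in *ken* samples (log2 fold change −1.11, standard error 0.10, adjusted p = 0.000433 from edgeR). *egl*, which acts in mRNA transport, was at a log2 fold change of −0.73, *Snap29*, a membrane fusion factor, at −0.88, *Pym*, which acts on the exon junction complex, at −0.93 and *bgcn*, a regulator of germ cell differentiation that overlaps *Pym*, at −1.34. The largest fall besides *ken* was that of *CG5532*, from 1346, 1590 and 1485 to 491, 575 and 522 normalized counts (log2 fold change −1.48, SE 0.10, adjusted p = 8.23e-05). The smallest was that of *Cpes*, which makes ceramide phosphoethanolamine (−0.45, adjusted p = 0.0209, and 0.0604 to 0.105 without control sample 2 or 3 or *ken* sample 1 or 3). Of the 24 genes, 16 were also lower in *ken* than in *pri* mutants, and 0 were lower in *pri* mutants than in control embryos by edgeR.

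The stretch had exceptions. *Mtpbeta*, a subunit of the mitochondrial trifunctional protein that lies next to *ken*, stood at 2339, 2371 and 2319 normalized counts in control samples and at 2510, 2792 and 3049 in *ken* samples (log2 fold change 0.25, 95% interval 0.06 to 0.43, adjusted p = 0.139 from edgeR). *TM4SF*, a tetraspanin gene on the other side of *ken*, was at a log2 fold change of −1.87, short of the threshold (adjusted p = 0.155), although no *ken* sample reached a control sample. It passed in the fit blocked by sample number (adjusted p = 0.0499), without *pri* sample 1 (0.000222), by DESeq2 (0.0216) and in the fit of control and *ken* samples alone (0.000759).

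Just beyond *DCP1* the direction turned. *DNAlig1*, a DNA ligase gene (2R, 23890512 to 23893177), stood at 417, 417 and 445 normalized counts in control samples and at 2108, 2433 and 1757 in *ken* samples (log2 fold change 2.30, SE 0.20, adjusted p = 0.000333 from edgeR). Next but 1 along the arm, *CG17658* (2R, 23895063 to 23896997) rose from 0.87, 3.60 and 5.70 to 91.3, 105.3 and 81.0 normalized counts (log2 fold change 4.78, standard error 0.51, adjusted p = 0.00084). *Lpt*, a subunit of a histone methyltransferase complex, rose by 0.53 (adjusted p = 0.00661), while *Upf3*, between *DNAlig1* and *CG17658*, was at 0.06 (adjusted p = 0.839). Neither *DNAlig1* nor *CG17658* differed between *pri* mutants and control embryos (adjusted p = 0.539 and 0.934), and both were higher in *ken* than in *pri* mutants (adjusted p = 0.000237 and 0.000743). The genes beyond *DCP1* were chosen after their values were seen.

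**Figure D1:**
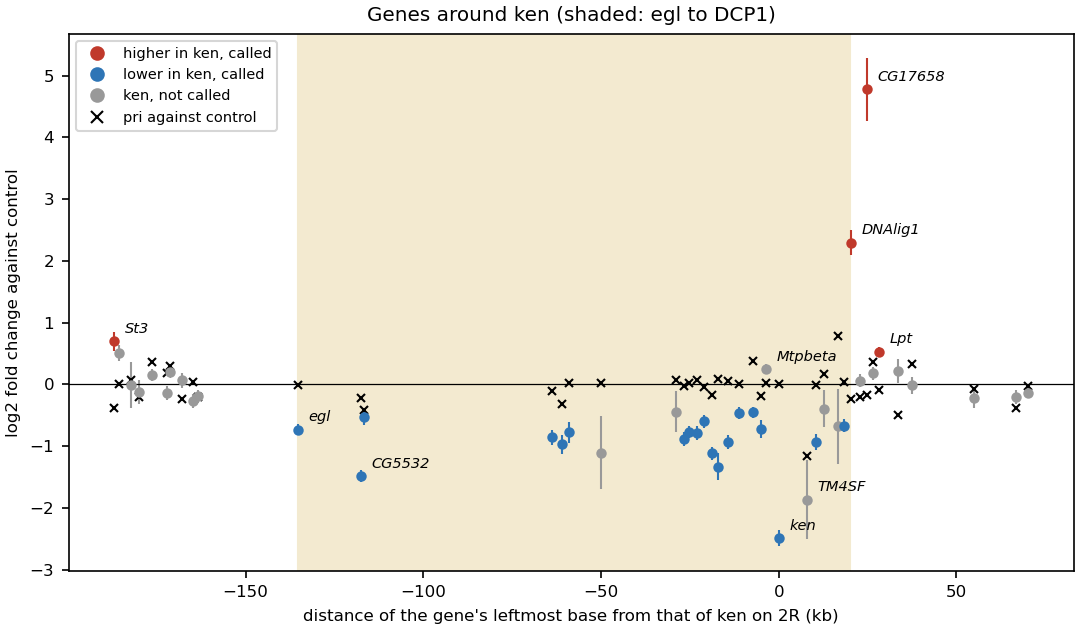
Log2 fold change of *ken* mutants against control embryos (points, with standard error) for genes with a mean of at least 10 normalized counts, against distance in kb from *ken* on 2R; crosses are *pri* mutants against the same control samples and the shading runs from *egl* to *DCP1*. Within the shading 18 genes besides *ken* fell, and just past its right edge *DNAlig1*, at 2.30, and *CG17658*, at 4.78, rose.

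Across the genome, 337 genes rose (2.21%) and 428 fell (2.81%) in *ken* mutants by edgeR at an adjusted p under 0.05, and 2690 had an unadjusted p under 0.05. The changes were of like size in both directions, with a median log2 size of 1.27 among the genes that rose and 1.12 among those that fell. A log2 change beyond 2 was found in 118 genes that rose and 108 that fell. The median over all genes was 0.01. Every one of the 337 genes that rose and 424 of the 428 that fell had no overlap between the 3 *ken* and the 3 control samples, while 12.3% of all genes lay with *ken* above and 12.5% with *ken* below in the same sense.

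The number of calls rests on few samples. Leaving out control sample 1, 2 or 3 gave 154, 180 and 151 genes that rose and 239, 239 and 241 that fell, and leaving out *ken* sample 3 gave 178 higher and 239 lower. In the fit blocked by sample number, 505 were higher and 705 lower.

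Calls were spread over the chromosome arms, at 4.93% of genes on 2L, 5.78% on 2R, 5.55% on 3L, 4.22% on 3R and 5% on X, where 5.02% of all genes passed. On the small chromosome 4, 1 of 108 genes passed.

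**Figure D2:**
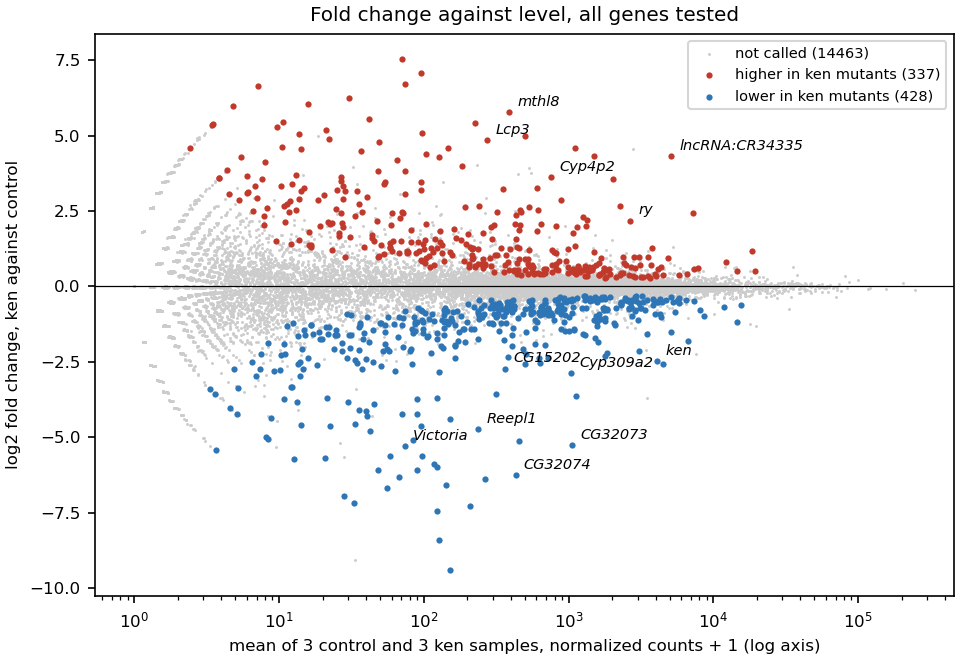
Log2 fold change of *ken* mutants against control embryos for 15228 genes, against the mean level over the 6 samples (normalized counts + 1, log axis); red genes passed as higher, blue as lower. The 337 genes that rose and the 428 that fell lie on both sides of 0 at low and high levels, with the larger changes at lower levels, and *lncRNA:CR34335* rose by 4.32.

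Several of the genes that rose most went from near 0 to a steady level in all *ken* samples. *mthl8*, which encodes a Methuselah-like receptor (3L, 22428 to 26308), stood at 14.8, 22.5 and 2.28 normalized counts in control samples and at 724, 729 and 826 in *ken* samples. The fitted log2 change was 5.77 (SE 0.42, adjusted p = 9.58e-05 from edgeR), and it kept its call in each of the 9 fits that leave out 1 sample. *asRNA:CR45600* stood at 6.11, 18.0 and 5.70 in control samples and at 430, 465 and 428 in *ken* samples (5.43, standard error 0.38, adjusted p = 9.34e-05). It overlaps *CG6912*, which rose as well (adjusted p = 0.000137), and since the strand setting of the counting is not given in the sources used here, their reads may not be told apart. In *pri* mutants *mthl8* stood at 674, 705 and 755 and *asRNA:CR45600* at 311, 498 and 428. Neither differed between the mutants (adjusted p = 0.901 and 0.884 from edgeR).

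*lncRNA:CR34335*, a noncoding RNA of the X chromosome (3545750 to 3546110), was the most abundant of the 15 genes with the largest rise. It stood at 320, 760 and 376 normalized counts in control samples and at 9116, 10990 and 9042 in *ken* samples (log2 fold change 4.32, SE 0.35, adjusted p = 0.000189 from edgeR). In *pri* mutants it stood at 887, 1458 and 1451, and *ken* mutants were higher than these by 2.94 (adjusted p = 0.000887).

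Enzyme genes were among the rises with the smallest p. *ry*, the xanthine dehydrogenase gene, stood at 954, 983 and 935 normalized counts in control samples and at 4145, 4279 and 4650 in *ken* samples (log2 fold change 2.18, standard error 0.09, adjusted p = 1.78e-05 from edgeR). *Lip1*, a lipase gene, rose by 2.20 (SE 0.12, adjusted p = 2.54e-05), and *phr*, which encodes a DNA photolyase, by 2.04 (SE 0.14, adjusted p = 9.58e-05). *l(3)87Df*, beside *ry* on 3R, rose by 2.54 (SE 0.17, adjusted p = 9.34e-05). *CG18853*, which follows *phr* on 2R, was at 0, 3.60 and 0 normalized counts in control samples and at 135, 146 and 157 in *ken* samples (6.71, standard error 0.87, adjusted p = 0.00239). Without control sample 2 its log2 fold change was 10.19 (adjusted p = 0.00699). *ry*, *Lip1*, *phr* and *l(3)87Df* rose in *pri* mutants too, by 2.09, 1.73, 1.58 and 1.49 (adjusted p at most 0.00132 from edgeR). *CG18853* did not pass there (adjusted p = 0.557).

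For some other strong rises the *ken* samples differed widely. *Uro*, the urate oxidase gene, stood at 333, 54.7 and 30.6 normalized counts in *ken* samples and had 2 counts in all in the control samples, a ratio of 241 (exact 95% counting interval 66.3 to 1993). Its call (adjusted p = 0.0279 from edgeR) was lost without any 1 of the control samples (adjusted p = 0.115 to 0.121). *CG12310* and *CG43679*, neighbors on 3L, stood at 4612, 1249 and 2658 and at 349, 89.5 and 125 in *ken* samples, against at most 159 and 2.70 in control samples, and kept their calls. *tobi*, an alpha-glucosidase gene controlled by insulin signaling, stood at 835, 204 and 204 in *ken* samples and at 66.4, 52.1 and 78.7 in control samples. Its log2 fold change of 2.66 (adjusted p = 0.0222) lost its call without any 1 of the control samples (adjusted p up to 0.0941) and was 1.63 without *ken* sample 1. Also among the 15 largest rises were *Ugt37A2*, *CG5391*, *CG44040*, *CR43105* and *CG18754*, at 4.38, 4.17, 4.60, 5.09 and 4.29. The calls of *Ugt37A2* and *CG5391* were lost without control samples 1, 2 and 3 (adjusted p = 0.128, 0.154 and 0.161 for *Ugt37A2*, and 0.0563, 0.0510 and 0.0569 for *CG5391*), and that of *Ugt37A2* also without *ken* sample 1 (0.0914), *ken* sample 3 (0.115) or *pri* sample 3 (0.0521).

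Falls that were steady in all control samples reached near absence. *CG32074* (3L, 11131883 to 11132322) stood at 762, 772 and 1008 normalized counts in control samples and at 10.7, 7.37 and 14.8 in *ken* samples (log2 fold change −6.25, SE 0.33, adjusted p = 2.54e-05 from edgeR). *CG32073*, which lies close by on 3L (11107008 to 11107582), went from 1620, 2355 and 2163 to 87.2, 32.6 and 36.5 (−5.27, standard error 0.38, adjusted p = 9.58e-05). In *pri* mutants these genes were also lower than in control embryos, at log2 fold changes of −2.96 and −2.23, and *ken* mutants were lower than *pri* mutants, at −3.29 and −3.04 (adjusted p = 0.000473 and 0.00108).

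*CG17005*, *CG14143* and *CG31600* fell to at most 4.94, 6.58 and 3.95 normalized counts in *ken* samples, with log2 fold changes of −5.98, −5.63 and −5.61. *CG31606* had 5 counts in all in *ken* samples, against 141, 143 and 112 normalized counts in control samples (−6.32, standard error 0.69, adjusted p = 0.00101 from edgeR, and −10.02 without *ken* sample 1). *CG17005*, *CG14143*, *CG31600* and *CG31606* fell in *pri* mutants too, at −5.64, −3.80, −6.17 and −5.85. None of them differed between the mutants (adjusted p = 0.119 to 0.823 from edgeR).

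Among the falls with the smallest p were a helicase gene and a P450 gene. *armi*, an RNA helicase of the piRNA pathway, which silences transposons, fell from 818, 769 and 943 normalized counts to 193, 185 and 156 (log2 fold change −2.24, standard error 0.13, adjusted p = 2.90e-05 from edgeR). It stood at 144, 162 and 156 in *pri* mutants, next to the *ken* samples. *CG6293* followed the same pattern, at 1189, 1017 and 1024 in control, 197, 159 and 201 in *ken* and 196, 179 and 165 in *pri* samples. *l(2)gl*, a cell polarity gene and tumor suppressor, is far more abundant and fell from 20618, 20402 and 19427 to 8561, 8595 and 9778 (−1.17, standard error 0.11, adjusted p = 0.000421), while *pri* mutants stood at 16242, 21233 and 19793.

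**Figure D3:**
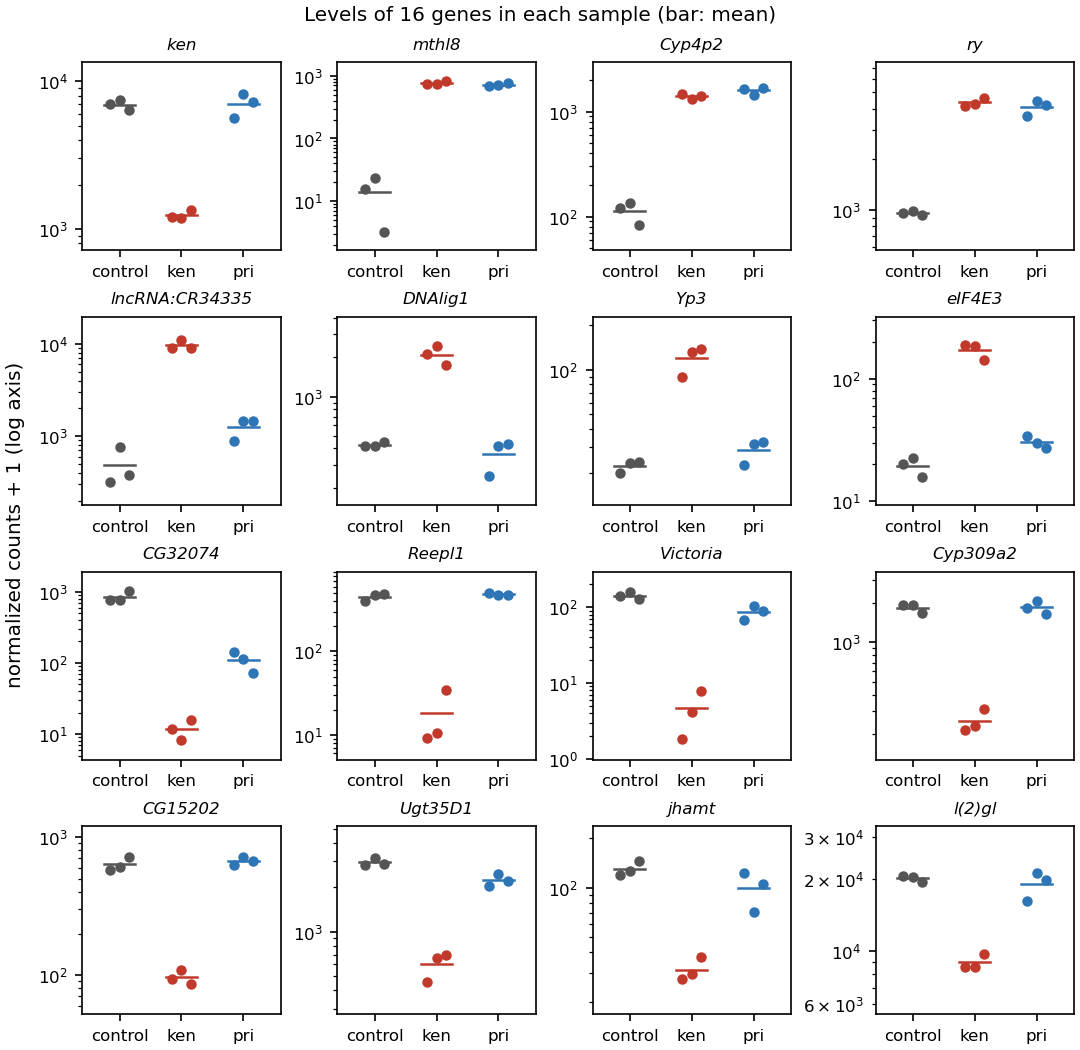
Levels of 16 genes in each sample of control, *ken* and *pri* embryos (normalized counts + 1, log axis); each point is a sample and each bar the mean of its group. In each of the 16 panels the *ken* samples do not overlap the control samples, *ry* rose to 3640, 4420 and 4205 in *pri* samples too, and *Reepl1* stayed at 496, 480 and 477 there.

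Part of these changes was found in *pri* mutants too, and part was not. Of the 337 genes that rose in *ken* mutants, 117 also rose in *pri* mutants by edgeR and 15 fell there. Of the 428 that fell in *ken* mutants, 142 also fell in *pri* mutants and 14 rose there. Comparisons of both mutants use the same control samples, so the direct test of *ken* against *pri* mutants was used to find genes that set *ken* mutants apart. By edgeR, 342 genes (2.25% of those tested) differed in *ken* mutants from both control and *pri* embryos in the same direction, 155 (1.02%) as higher and 187 (1.23%) as lower. Of all genes, 3.68% were higher and 3.83% lower in *pri* mutants than in the control samples. The count was 206, 218 and 183 without control samples 1, 2 and 3, 199 without *ken* sample 3 and 555 in the fit blocked by sample number.

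Some of these genes were at the level of control embryos in *pri* mutants. *Reepl1*, related to genes that shape the endoplasmic reticulum, stood at 403, 480 and 481 normalized counts in control, 496, 480 and 477 in *pri* and 8.23, 9.48 and 33.6 in *ken* samples. Its log2 fold change was −4.74 against control and −4.83 against *pri* embryos (adjusted p = 0.000333 and 0.000324 from edgeR). *Cyp309a2*, a cytochrome P450 gene (2L, 2564886 to 2573037), fell from 1924, 1924 and 1659 in control samples to 214, 227 and 311, with 1825, 2056 and 1641 in *pri* samples (−2.88, standard error 0.16, adjusted p = 2.54e-05). *CG15202* on X fell from 575, 609 and 713 to 93.0, 107.4 and 85.9 (−2.73, standard error 0.13, adjusted p = 2.03e-05).

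*Victoria*, named *TotE* in the reference annotation, stood at 141, 157 and 128 normalized counts in control samples, 66.5, 101.7 and 87.9 in *pri* samples and 0.82, 3.16 and 6.91 in *ken* samples (log2 fold change −5.29, adjusted p = 0.000333 from edgeR). *CG15705* and *CG32640* fell to at most 0.99 and 16.8 normalized counts in *ken* samples from at least 35.1 and 123 in control samples. With *Reepl1*, *Lcp1*, *lncRNA:CR46350*, *CG32074*, *CG32073*, *CG43291* and *Cyp309a2* these were the 10 genes lower in *ken* mutants than in both other groups by the largest margin.

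Several of the genes higher than in both other groups by the largest margin were of low level. *CG16995* rose to 51.0, 64.2 and 59.2 normalized counts in *ken* samples, with 2 counts in all in control samples, a ratio of 90.2 (exact 95% counting interval 24.6 to 751). *Mur82C*, *CR42653* and *Ir47a*, a gene of the ionotropic receptor family, had 1, 3 and 2 counts in all in control samples and ratios of 60.2 (10.4 to 2415), 39.8 (13.3 to 196) and 29.6 (7.84 to 250). *Ada1-1* rose to 42.8, 48.4 and 31.6 normalized counts from 0, 3.60 and 0 (log2 fold change 4.88, adjusted p = 0.00894 from edgeR, and 8.35 without control sample 2). *COX6AL2* had 0 counts in control samples and 24 in *ken* samples, at least 7.89-fold higher against a floor of 3 counts over the group, and its call (adjusted p = 0.0337) was lost in the fit blocked by sample number (0.0726) and without each control or *ken* sample in turn (0.0749 to 0.116).

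*Yp3*, a yolk protein gene, stood at 19.2, 22.5 and 22.8 normalized counts in control, 21.8, 30.7 and 31.4 in *pri* and 88.0, 130.6 and 137 in *ken* samples (log2 fold change 2.45, standard error 0.25, adjusted p = 0.000702 from edgeR). *eIF4E3*, which encodes a cap-binding translation factor, rose from 19.2, 21.6 and 14.8 to 188, 184 and 141 (3.19, standard error 0.22, adjusted p = 9.58e-05), and was chosen after its values were seen.

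Genes that make or inactivate the molting hormone ecdysone were lower where they passed the test. Of 14 such genes, 4 were lower and 0 higher by edgeR (28.6% lower, against 2.81% of all genes), with a median log2 fold change of −0.48 over the 14. DESeq2 also gave 4 lower and 0 higher, where it called 688 genes lower and 551 higher in all. *phm* and *Cyp18a1* are neighbors on X. *phm*, an early hydroxylase of ecdysone synthesis, stood at 339, 316 and 352 normalized counts in control, 347, 352 and 304 in *pri* and 169, 155 and 177 in *ken* samples (log2 fold change −1.01, SE 0.12, adjusted p = 0.00142 from edgeR). *Cyp18a1*, which inactivates the hormone, stood at 3424, 4177 and 4029 in control and 2366, 2262 and 2417 in *ken* samples (−0.73, standard error 0.08, adjusted p = 0.00142).

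*nvd*, which acts at the first step from cholesterol, stood at 69.0, 53.9 and 85.6 normalized counts in control samples and at 26.3, 39.0 and 24.7 in *ken* samples (log2 fold change −1.21, adjusted p = 0.0267 from edgeR). *sro*, which acts after it, was at −0.92 (adjusted p = 0.0392). *nvd* lost its call without control sample 1 or 3 or *ken* sample 1 or 3 (adjusted p up to 0.113). *sro* kept it in 1 of the 9 fits that leave out a sample (adjusted p up to 0.154), lost it by DESeq2 (0.0631) and lost it in the fit of control and *ken* samples alone (0.0716). The count of lower genes was thus 2 without control sample 1, control sample 3, *ken* sample 1 or *ken* sample 3.

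*spo*, another P450 gene of this path, stood at 127, 74.6 and 50.2 normalized counts in control and at 23.0, 15.8 and 12.8 in *ken* samples, and did not pass (log2 fold change −2.27, adjusted p = 0.0569 from edgeR, and 0.0104 without *pri* sample 1 and 0.0452 in the fit blocked by sample number). *sad* and *shd*, which act at late steps, were at −0.30 (95% interval −0.79 to 0.19) and 0.07 (−0.57 to 0.71). Of 24 genes that respond to ecdysone, 1 rose (4.17%, against 2.21% of all genes) and 0 fell (against 2.81%). The 1 that rose was *ImpL2*, which encodes an ecdysone-inducible protein that binds insulin-like peptides, by 0.60 (SE 0.08, adjusted p = 0.00377). *Ilp6*, an insulin-like peptide gene, fell from 843, 861 and 866 to 490, 504 and 508 (−0.78, standard error 0.12, adjusted p = 0.00497).

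Genes of juvenile hormone, the other major insect hormone, moved in both directions. *jhamt*, the methyltransferase that makes it, stood at 119, 125 and 145 normalized counts in control, 123, 69.9 and 104 in *pri* and 26.3, 28.4 and 36.5 in *ken* samples. The fitted log2 change was −2.09 (SE 0.25, adjusted p = 0.00151 from edgeR), and it was lower than in *pri* mutants (−1.70, adjusted p = 0.00327). *Jhe*, the esterase that breaks the hormone down, was at a log2 fold change of −2.13 (adjusted p = 0.0460), and its call was kept in 2 of the 9 fits that leave out a sample and lost without each control sample, each *ken* sample or *pri* sample 3 (adjusted p up to 0.149). Of 12 genes of juvenile hormone synthesis, breakdown and response, a list written after values were seen, these 2 were lower and *Jheh1*, a juvenile hormone epoxide hydrolase gene, was higher (0.60, adjusted p = 0.0366). This is 16.7% lower and 8.33% higher, against 2.81% and 2.21% of all genes.

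Cuticle protein genes moved in both directions, more often down. Of 15 genes of the larval cuticle protein (Lcp) family 2 rose and 2 fell by edgeR, 13.3% each, against 2.21% and 2.81% of all genes. Of 78 of the Cpr family, named for a chitin-binding domain, 1 rose and 8 fell, which is 1.28% higher and 10.3% lower. Over the 78 the median log2 fold change was −0.37. In the fit blocked by sample number, 6 Lcp genes fell, and 4 Cpr genes rose and 14 fell. That fit called more genes in all, 505 of 15228 as higher and 705 as lower.

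*Cpr72Ea*, *Cpr72Eb* and *Cpr72Ec* lie next to one another on 3L and all fell. *Cpr72Ea* stood at 60.3, 47.6 and 54.8 normalized counts in control samples and had 1 count in all in *ken* samples, a ratio of 172 between control and *ken* samples (exact 95% counting interval 30.5 to 6848). *Cpr72Ec* fell from 72.5, 79.1 and 70.7 to 17.3, 6.32 and 14.8 (log2 fold change −2.51, standard error 0.33, adjusted p = 0.00243 from edgeR). All 3 were also lower in *pri* mutants than in the same control samples. *Cpr49Ac* fell in *ken* mutants, from 247, 240 and 317 to 89.7, 111.6 and 99.7 (−1.42, standard error 0.17, adjusted p = 0.00166), and was higher than control in *pri* mutants (0.65, adjusted p = 0.0477).

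For these data the study names *Lcp3*, *Lcp4* and *Cpr47Eb* among genes that rose in both *ken* and *pri* mutants. *Lcp2*, *Edg91* and *TwdlP* are named there from other experiments. The study tested its RNA-seq with DESeq2, and by in situ hybridization it also saw ectopic *Lcp3*, *Lcp4* and *Cpr47Eb* RNA in *ken* mutant embryos. By DESeq2 here these genes passed too, with adjusted p of 5.74e-15 for *Lcp3* and 0.00197 for *Lcp4*. With edgeR, some of the named genes passed and others did not. *Lcp3* stood at 18.3, 22.5 and 12.5 normalized counts in control and 916, 208 and 456 in *ken* samples (log2 fold change 4.86, adjusted p = 0.00147 from edgeR). *Lcp4* stood at 189, 90.8 and 125 in control and 452, 341 and 1581 in *ken* samples (2.54, adjusted p = 0.0330), lost its call without control samples 1, 2 and 3 (0.0726, 0.121 and 0.131) and *pri* sample 3 (0.0539), and was at 1.54 without *ken* sample 3. *Lcp2* was at −1.01 (adjusted p = 0.229, and 0.00599 in the fit blocked by sample number) and *Lcp1* fell by 3.82 (adjusted p = 0.00212). *Cpr47Eb* stood at 337, 209 and 123 in control samples and at 11840, 2332 and 1760 in *ken* samples, with sample 1 far above the others. It did not pass in the main edgeR fit (4.56, adjusted p = 0.0630). It passed in the fit blocked by sample number (0.00125), by DESeq2 (0.00145), in the fit of control and *ken* samples alone (0.0169) and without *pri* sample 1 or 2 (0.00952 and 0.0451). *Edg91* and *TwdlP* were at 0.86 (95% interval −0.86 to 2.58) and −0.11 (adjusted p = 0.961).

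*Cpr67Fa1* and *Cpr67Fa2* went in opposite directions, from 87.3, 131 and 122 to 1095, 704 and 1488 normalized counts and from 2562, 2706 and 3808 to 550.5, 355 and 1052. They are neighboring copies, and so are *Lcp1* to *Lcp4*, so reads may have been shared among them and their separate values are uncertain. The log2 fold changes were 3.27 (adjusted p = 0.000244 from edgeR) and −2.21 (adjusted p = 0.00725).

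Of 41 genes of chitin synthesis, modification and breakdown, 4 fell and 0 rose by edgeR, which is 9.76% lower against 2.81% of all genes, with a median of −0.02. By DESeq2, 5 fell and 2 rose, where 688 genes fell and 551 rose in all. Of the fallen genes 3 encode chitinase-like growth factors, while *Idgf1*, *Idgf2* and *Idgf3* of the same family did not pass (log2 fold changes −0.35, −0.23 and −0.38). *Idgf6* stood at 15612, 14215 and 14103 normalized counts in control and 9300, 9372 and 8626 in *ken* samples (log2 fold change −0.69, standard error 0.08, adjusted p = 0.0016 from edgeR). *Idgf4* and *Idgf5* fell by 0.63 and 0.62 on the log2 scale (adjusted p = 0.00466 and 0.00916, and 0.0530 for *Idgf5* without control sample 3). These genes were at the control level in *pri* mutants (log2 fold changes −0.06, 0.09 and 0.01) and differed between the mutants (adjusted p = 0.00203, 0.0018 and 0.00582). *Cht4*, a chitinase gene, fell by 2.54 (adjusted p = 0.00795).

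**Figure D4:**
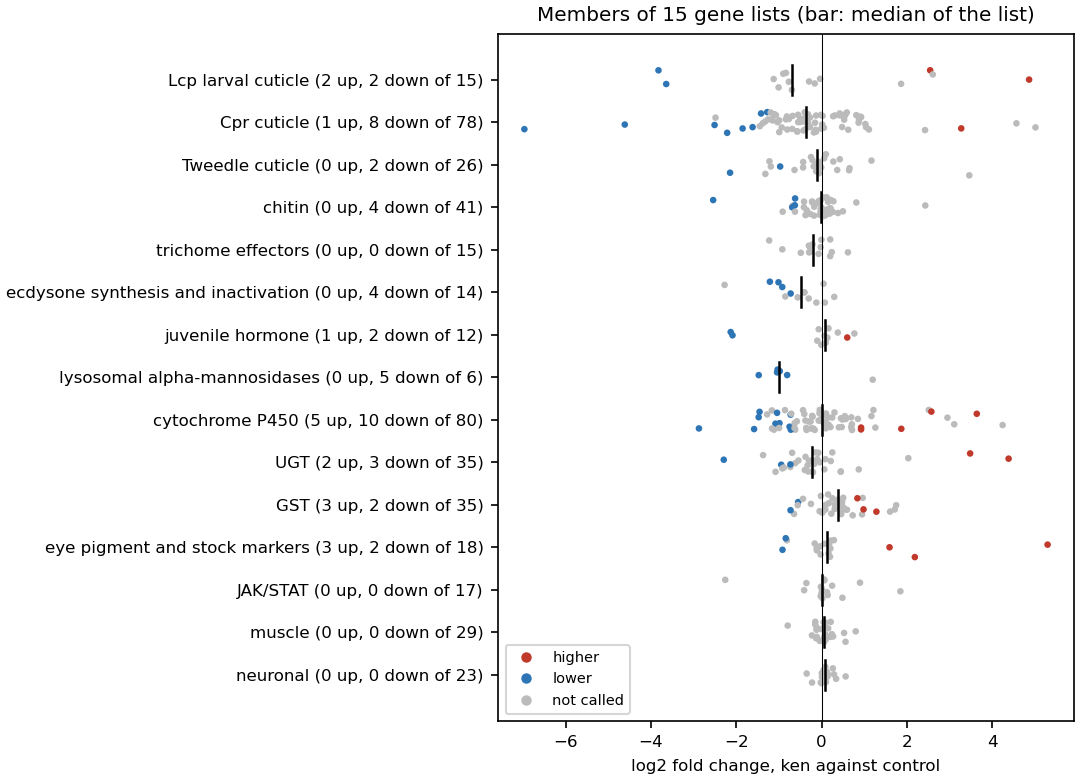
Log2 fold change of *ken* mutants against control embryos for the members of 15 gene lists; each point is a gene, red or blue where it passed as higher or lower, and each black bar is the median of the list. Ecdysone genes and lysosomal mannosidases that passed lie to the left of 0, cytochrome P450 genes on both sides, and no muscle or neuronal gene passed.

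Detoxification gene families changed in both directions. Of 80 cytochrome P450 genes, 5 rose and 10 fell by edgeR (6.25% and 12.5%, against 2.21% and 2.81% of all genes), with a median log2 fold change of 0.01 over the family. *Cyp4p2* rose from 120, 133 and 82.1 to 1482, 1313 and 1394 normalized counts (3.63, standard error 0.17, adjusted p = 2.03e-05) and *Cyp28a5* from 181, 233 and 169 to 726, 617 and 787 (1.87, standard error 0.16, adjusted p = 0.000249). *Cyp4p2* stood at 1653, 1421 and 1688 in *pri* samples and did not differ between the mutants (adjusted p = 0.507 from edgeR). *Cyp304a1* fell from 4510, 5992 and 5169 to 1400, 2434 and 1414 (−1.58, standard error 0.22, adjusted p = 0.00379) and *Cyp12e1* was at −1.48 (adjusted p = 0.00151). Without control sample 1 or *ken* sample 3, 6 P450 genes fell, and without control sample 1 or 2, 3 rose. In the fit blocked by sample number 11 rose, where 505 genes rose in all.

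UDP-glycosyltransferases and glutathione S-transferases, which conjugate foreign and internal compounds, were split as well. Of 35 glycosyltransferase genes, 2 rose and 3 fell, and of 35 glutathione transferase genes, 3 rose and 2 fell by edgeR. These are 5.71% higher and 8.57% lower for the former and 8.57% higher and 5.71% lower for the latter, against 2.21% and 2.81% of all genes. *Ugt35D1* stood at 2816, 3142 and 2893 normalized counts in control, 2049, 2447 and 2194 in *pri* and 455, 658 and 698 in *ken* samples (log2 fold change −2.29, standard error 0.15, adjusted p = 9.32e-05). *Ugt35B1* rose from at most 4.56 to at least 44.4 (3.48, standard error 0.26, adjusted p = 0.000108).

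*GstE6* and *GstE1* lie in the same cluster of glutathione transferase genes on 2R and moved apart. *GstE6* rose from 2275, 2494 and 2313 to 5399, 4453 and 4151 normalized counts (log2 fold change 0.98, standard error 0.10, adjusted p = 0.000755 from edgeR), and *GstE1* fell from 1816, 1453 and 1340 to 1032, 893 and 862 (−0.73, standard error 0.13, adjusted p = 0.0131, and 0.0573 and 0.0620 without *ken* samples 2 and 3). The family's count of rises was 2, 2, 1, 2 and 2 without control samples 1, 2 and 3 and *ken* samples 1 and 3, 6 without *pri* sample 1 and 8 in the fit blocked by sample number, and without *ken* sample 3 it had 0 falls. The glycosyltransferases had 1 rise without control sample 1, 2 or 3, *ken* sample 1 or 3 or *pri* sample 3, and 6 falls in the blocked fit. Over all genes the blocked fit called 505 as higher and 705 as lower.

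Eye color genes, which often mark fly stocks, differed between the groups. Of 18 such genes 3 rose and 2 fell by edgeR (16.7% and 11.1%, against 2.21% and 2.81% of all genes), and these counts held without each sample in turn. Besides *ry*, *cn* and *w* rose. *cn*, the kynurenine monooxygenase gene, had 1 count in all in control samples and stood at 18.9, 15.8 and 16.8 normalized counts in *ken* samples, a ratio of 54.2 (exact 95% counting interval 9.34 to 2181). *w*, a pigment precursor transporter, stood at 79.5, 89.9 and 76.4 in control, 220, 302 and 222 in *ken* and 636, 971 and 880 in *pri* samples (log2 fold change 1.59 in *ken* mutants, standard error 0.19, adjusted p = 0.00161 from edgeR).

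*v*, tryptophan dioxygenase, which acts before *cn* in the same pathway, dropped by 0.84 in log2 (SE 0.13, adjusted p = 0.00657 from edgeR) and *kar*, a transporter gene, by 0.92 (SE 0.15, adjusted p = 0.00785). *ry* stood at 3640, 4420 and 4205 normalized counts in *pri* samples, above the control samples too (2.09, adjusted p = 1.13e-05). The stock table of the study gives the *ken*1 stock as carrying marker alleles of *cn* and *ry*. A part of the genetic background in these differences was not tested.

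Some genes that changed lay beside one another. Of 716 genes that passed among the 11025 genes with a mean of at least 10 normalized counts and a position, 150 (20.9%) had a next expressed neighbor that changed in the same direction, in 61 runs. Of these runs 15 held 3 or more genes, 13 of them outside the stretch around *ken*. The runs inside that stretch held 10 and 6 of the 150 genes. Whether neighbors changed together more than their share of calls would give was not tested. Genes of a run can overlap or be copies of each other, so they are not independent.

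The longest run outside the stretch around *ken* lay on 2R (10418718 to 10427915). Its members include peroxiredoxin genes, which encode peroxide-reducing enzymes. *Prx2540-2*, *CG11825*, *CG33474*, *Prx2540-1* and *CG12896* all rose. *Prx2540-1* stood at 250, 410 and 290 normalized counts in control and 3929, 3573 and 3672 in *ken* samples (log2 fold change 3.55, standard error 0.34, adjusted p = 0.000472 from edgeR) and *CG11825* at 27.1, 44.9 and 18.3 and at 1065, 729 and 1101 (4.98, standard error 0.58, adjusted p = 0.00142). *Prx2540-1*, *Prx2540-2* and *CG12896* are close copies and may share reads, and *CG33474* lies within *CG11825*. Of the 5 genes, 3 also rose in *pri* mutants.

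On 3L (11123348 to 11135480), *NaPi-III*, *nol*, *CG32074* and *CG14143* fell, and *nol* and *CG32074* lie within *NaPi-III*. *NaPi-III*, a phosphate transporter gene, dropped by 0.68 in log2 (SE 0.08, adjusted p = 0.00192 from edgeR), much less than the 2.74 of *nol* and the 6.25 of *CG32074*. On X (10371717 to 10381352), *CG32686*, *CG2898* and *CG32681* rose, and *CG32681* stood at 15.7, 23.4 and 27.4 normalized counts in control, 16.05, 21.2 and 28.2 in *pri* and 123, 117 and 120 in *ken* samples (2.44, standard error 0.27, adjusted p = 0.00104).

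Lysosomal alpha-mannosidases, which trim sugar chains in the lysosome, formed a run of 3 and a run of 2 genes on 2L. Of 6 *LMan* genes, listed after values were seen, 5 fell by edgeR (83.3%, against 2.81% of all genes). *LManII* stood at 3913, 3339 and 3804 normalized counts in control and 2061, 2023 and 2243 in *ken* samples (log2 fold change −0.81, standard error 0.11, adjusted p = 0.00374). *LManI*, *LManIII*, *LManIV* and *LManV* were at −0.98, −1.47, −1.04 and −1.03. Without control sample 1 or 3, *ken* sample 2 or 3 or *pri* sample 3, 3 of them fell. *LManVI* did not pass, with a 95% interval of its log2 fold change from −1.19 to 3.58.

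A set of genes with very large falls was high in only 2 of the 3 control samples. Of the 15 largest falls, 8 were of genes listed for the blastoderm, the stage at which cell membranes form around the nuclei of the early embryo: *Elba1*, *Elba3*, *bnk*, *term*, *SNCF*, *CG7271*, *CG14317* and *CG14014*. *Elba1*, part of an early insulator complex, stood at 271 and 619 normalized counts in control samples 1 and 2, at 6.84 in control sample 3 and at 0, 1.05 and 0 in *ken* samples. Its adjusted p was 0.0159 by edgeR, and its call was lost without *ken* sample 1, 2 or 3 (0.0683, 0.0830 and 0.0757). *bnk*, which acts in the contraction that closes the new cells, stood at 268, 958 and 7.99 in control and 2.47, 1.05 and 3.95 in *ken* samples, and *term* at 238, 476 and 13.7 and at 0.82, 3.16 and 0.

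Over 14 such genes, listed after values were seen, the summed level was 4176, 10531 and 300.0 normalized counts in control samples 1, 2 and 3, 826, 272 and 158 in *ken* samples and 199, 390.0 and 169 in *pri* samples. In *pri* mutants 7 of the 14 were lower than in control embryos by edgeR, against 3.83% of all genes, with a median log2 fold change of −4.22 over the 14. In *ken* mutants 13 of the 14 passed as lower (92.9%, against 2.81% of all genes). *slam*, which directs membrane growth in the blastoderm, was at 1387, 4146 and 129 in control and 764, 213 and 105 in *ken* samples and did not pass (log2 fold change −2.39, adjusted p = 0.315). Without control sample 1 or control sample 2, 1 of the 14 passed. Without *pri* sample 3, 6 passed, and without any 1 of the *ken* samples 0 passed. DESeq2 on all samples called 13 of the 14 as lower, where it called 688 genes lower in all. Without both control samples 1 and 2, an alternative chosen after seeing the data in which the lone control sample is assumed to vary like the other groups, 0 of the 14 passed, 29 genes were higher and 58 lower in all, and *ken*, *CG32074*, *CG15202*, *Cyp309a2*, *mthl8*, *ry* and *Cyp4p2* kept their calls.

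**Figure D5:**
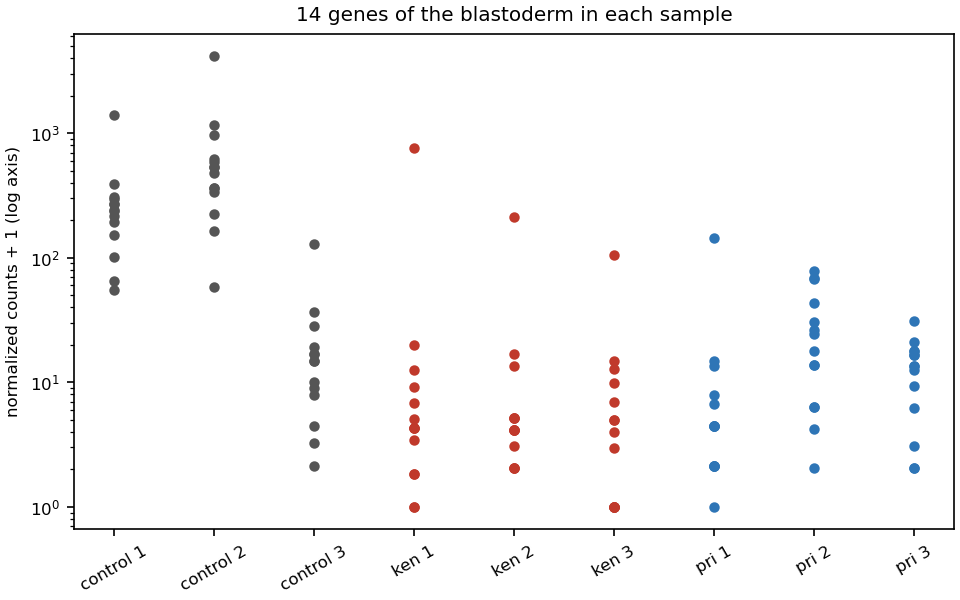
Level of 14 genes of the blastoderm in each of the 9 samples (normalized counts + 1, log axis); each point is a gene in a sample. Control samples 1 and 2 have summed levels of 4176 and 10531, against 157.96 to 826.11 in the other 7.

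Other gene lists gave no call. Of 47 gene lists, 17 had no member that passed by edgeR, among them the lists for Osiris genes, trichome effectors, JAK/STAT signaling, posterior and hindgut regulators, Hox genes, trachea, muscle, neurons, salivary gland, antimicrobial peptides, heat shock and the epidermal wound response. Of the 337 genes on these 17 lists, 47 (13.9%) had an unadjusted p under 0.05, against 17.7% of all genes, and 14 passed by DESeq2. Over all genes DESeq2 called 551 as higher and 688 as lower. *Socs36E*, a target of JAK/STAT signaling, stood at 2202, 1992 and 2158 normalized counts in control and 2316, 2230 and 2101 in *ken* samples (log2 fold change 0.06, 95% interval −0.14 to 0.26). *vvl* and *trh*, transcription factor genes, were at 0.12 (−0.17 to 0.42) and −0.02 (−0.24 to 0.20), and *kni*, a gap gene, at −0.41 (−0.74 to −0.08, adjusted p = 0.173, and 0.0326 in the fit blocked by sample number). Of 18 genes of the BTB family, to which *ken* belongs, 1 fell, *bab1*, from 153, 137 and 147 to 67.5, 72.6 and 64.2 (−1.10, standard error 0.14, adjusted p = 0.0025). This is 5.56% lower, against 2.81% of all genes.

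On the Y chromosome 4 of 51 genes fell and 0 rose by edgeR, which is 7.84% lower against 2.81% of all genes. *FDY* (Y, 3022289 to 3024024) stood at 548, 569 and 617 normalized counts in control, 180, 141 and 61.7 in *pri* and 47.7, 53.7 and 45.4 in *ken* samples, a log2 fold change of −3.56 in *ken* mutants (SE 0.34, adjusted p = 0.000472). It was lower in *ken* than in *pri* mutants (−1.38, adjusted p = 0.0309), and was chosen after its values were seen.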

How the data were processed

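RNA of 9 samples of whole embryos was sequenced by the authors (strand-specific polyA libraries, paired-end reads of 100 bp), aligned with STAR 2.6.1d to dm6 and counted per gene of FlyBase 6.31, where only genes totalling more than 1 were kept. Mouse builds stand in the submitters' processing notes, although every ID is a FlyBase one. Positions come from the Ensembl annotation, which held 15159 of the 15228 IDs. The deposited table holds whole counts and normalized signal values, which the authors made by dividing counts by DESeq2 size factors (largest relative difference from that 4.99e-10).

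Counts were tested with edgeR 4.0.16 in R 4.3.3 (quasi-likelihood F test of all 9 samples, TMM factors, no further filter, Benjamini-Hochberg adjustment, calls at an adjusted p under 0.05). Each standard error (SE) was taken as the size of the fold change in log2 divided by the root of F, and intervals are 95%. Samples of a genotype are called independent in the methods of the study, and p-values measure the spread between these samples. Exact counting intervals (Clopper-Pearson) are given where a group held at most 3 counts and cover counting error only. On simulated counts for *ken* against control (15228 genes), log2 changes of 1, 2 and 3 were recovered in 57.4%, 98.5% and 100% of genes.

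Samples with the same number deviated together in *ken* and control (correlation of deviations 0.345, 0.467 and 0.175 for numbers 1, 2 and 3), a pairing that comes from the data and not from the labels. For *pri* samples 1, 2 and 3 the values were 0.433, 0.545 and −0.111 with control and 0.552, 0.526 and 0.118 with *ken*. *pri* sample 3 ran closer to sample 2 of control (0.396) and of *ken* (0.36). The blocked fit holds all 9 samples, so its block is poorly matched for *pri* sample 3. The fit with this number as a block is given where it changes a call.

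Alternatives were RLE factors, DESeq2 1.42.0, filterByExpr, only control and *ken* samples, the block, a log2 fold change of at least 1 and leaving out each sample. Members and lists were chosen with earlier results of these data known. Genes named are *ken*, genes the study names, the 15 largest changes and the 8 smallest p per direction (no overlap, mean normalized count 50 or more), up to 4 called members per list, genes from *egl* to *DCP1* and the 10 per direction differing most from both other groups. Others, such as *tobi*, *mtrm*, *jhamt*, *Jhe*, *spo*, *sad*, *shd*, *Prat2*, *GlcT*, *Cyp304a1*, *Cyp12e1*, *kar*, *Upf3*, *slam* and the genes of neighboring runs, were chosen after their values were seen. Not every gene that this rule names is printed here.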

Additional observations from a re-analysis of the deposited data

How the results depend on the processing

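The counts moved most when samples were left out. Higher in *ken* mutants were 151 to 479 genes when 1 sample was left out, lower 239 to 625, and different from both control and *pri* embryos 183 to 422. By DESeq2 the counts were 551, 688 and 539. With the sample number as a replicate block they were 505, 705 and 555, and the block changed the call of 6 of the 137 genes named by the rule, 5 of them gained and 1 lost. With a log2 fold change of at least 1, 202 were higher and 235 lower. Without control samples 1 and 2, chosen after seeing the data, 29 were higher, 58 lower and 47 different from both. RLE factors, filterByExpr and the fit of control and *ken* samples alone kept the counts within 1.5 times, and the third of these has no *pri* samples to give the count against both. Of the 123 named genes that passed, 79 kept their call under all 14 alternatives named above that refit the model, other than the one chosen after seeing the data, 44 lost it under at least 1, and 0 changed direction. *nullo*, a blastoderm gene, was at 0.31 (adjusted p = 0.957) without control samples 1 and 2. The block changed no other call among them. With 3 samples a group and 21048610 to 28859395 counts a sample, small changes may not have been detectable.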

Other observations

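The summed level of 4 germ line markers was 313 to 330 normalized counts in control samples and 359 to 602 in *ken* samples, highest in *ken* sample 1, and none of the 4 passed by edgeR. The summed level of 4 fat body markers was 68411 to 89900 in control samples and 50710 to 70331 in *ken* samples, lowest in *ken* sample 1. Their median log2 fold change was 0.68, opposite to the sum, 2 of them had a mean under 10 normalized counts, and none passed. In a list of 11 fat body and larval serum genes, 1 rose and 0 fell by edgeR (9.09% higher, against 2.21% of all genes). The summed level of 4 tracheal markers was 64845 to 68503 in control samples and 59090 to 64312 in *ken* samples, and none of the 4 passed.

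*mtrm*, an inhibitor of Polo kinase in the oocyte, stood at 265, 53.7 and 75.0 normalized counts in *ken* samples and at 18.3, 18.9 and 9.13 in control samples (log2 fold change 3.06, adjusted p = 0.0239 from edgeR). Its call was lost without control sample 1, 2 or 3 (adjusted p up to 0.105). *Prat2*, which encodes the first enzyme of purine synthesis, fell from 1897, 2199 and 1769 to 643, 634 and 661 normalized counts (−1.60, standard error 0.11, adjusted p = 9.58e-05) and stood at 2100, 2288 and 1776 in *pri* samples. *GlcT*, the glucosylceramide synthase gene, fell from 2042, 2128 and 1985 to 1060, 1034 and 1040 (−0.98, standard error 0.08, adjusted p = 0.000156) and stood at 1953, 1846 and 1680 in *pri* samples. These genes were chosen after their values were seen.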
